A study of Mus musculus with 28 samples.

Results

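Axon guidance genes encode the secreted and membrane-bound cues, and the receptors for them, through which growing axons and dendrites are attracted, repelled or held in a layer. The 61 genes described here belong to 10 such families. They were found by a rule on the gene symbol alone among the 13617 genes that the arrays measured with a single symbol. The ligands were 18 semaphorins, 7 ephrins, 2 Slits, 3 netrins and 1 netrin-G. The receptors were 8 plexins, 1 neuropilin, 12 Eph receptors, 4 Robos and 5 netrin receptors (Dcc and Unc5a to Unc5d). Efna3, Ephb2, Ephb6, Nrp2, Ntn5, Ntng2, Plxnb3, Sema3g, Sema4c and Slit3 were not analysed here.

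Amacrine cells are interneurons of the inner retina, whose neurites connect within the layers of the inner plexiform layer. Semaphorins signal mainly through plexins, with neuropilins as co-receptors for most secreted class 3 semaphorins. Netrins act through Dcc and the Unc5 receptors, Slits through Robos, and ephrins through Eph receptors at sites of cell contact. In the mouse retina, Sema6a with Plxna4 is known for sorting neurites into layers, and Sema6a with Plxna2 for shaping starburst dendrites.

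Gene expression was measured on 28 arrays of RNA from 200 cells each, sorted by fluorescence from 1 retina. Starburst cells, which release acetylcholine and serve direction selectivity, came from mice with the Cre allele 129S6-Chat_tm1(cre)Lowl/J and the reporter Rosa26-LSL-RFP, so that cells which have used the Chat promoter carry RFP, and were sampled at postnatal day 18 (P18, 3 arrays) and P3 (3 arrays). Arc amacrine cells carried EGFP driven by the promoter of the activity-regulated gene Arc (Tg(Arc-EGFP)194Gsat/Mmcd). They were sampled on each day from P1 to P20, with 1 array a day and 2 at P6, and once at P43. The labels give a mixed FVB/N-Swiss Webster and C57BL/6J background for all samples, and state that the Arc-EGFP founders harboured a recessive mutation causing photoreceptor degeneration. The Arc animals were the F2 generation after crossing to C57BL/6J. The labels name no treatment.

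Expression is given on the log2 scale of the arrays, so a difference of 1 is 2-fold, and levels are set against each other only for 1 gene at a time. Marker genes separated the cell types as labelled. Slc18a3, the vesicular acetylcholine transporter, lay between 7.17 and 7.87 in starburst P18, between 6.60 and 6.92 in starburst P3 and between 1.74 and 3.69 in all Arc arrays. Slc5a7, the choline transporter, lay between 7.70 and 8.11 in starburst P18 but below background in starburst P3 (2.14 to 2.80) and in Arc cells. The Arc gene lay between 4.42 and 5.21 in starburst P18, between 3.96 and 4.95 in starburst P3 and between 5.33 and 6.15 in Arc cells. Olfactory receptor genes, which these cells are not known to use, gave a background: the 95th percentile of their means was 3.91 in starburst and 3.47 in Arc cells. The mean lay above it for 26 of the 61 guidance genes in starburst cells and for 37 in Arc cells, and for 23 in neither. Of all 13617 genes, 5679 lay above background in starburst cells and 6882 in the Arc arrays of P1 to P20, with the background set on the same arrays. The starburst count of guidance genes is near that share. A difference that includes a group below background is compressed. Where 1 of the 2 groups of arrays lay below it, a lower bound on the fold is given, taken from the brighter group and the background, and the fitted age changes in Arc cells have no such bound. The Arc array of P1 stood apart, with a mean correlation of 0.956 with its 3 nearest Arc arrays, against 0.968 to 0.985 for the others. Batch is labelled A and B for Arc arrays, with suffixes of unstated meaning on the P6 pair, and B for starburst arrays, so batch, mouse line, fluorophore and cell type cannot be told apart. In RNA from pooled cells, a lower level in each cell and fewer cells with the transcript cannot be told apart either.

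The promoter windows of 4 members are printed because these genes were among those with the largest differences described below: Robo1 and Plxna2 between the cell types, and Sema3a and Sema3d between the ages of starburst cells. Each window runs from 250 bases before to 50 bases after the start of the gene in RefSeq (GRCm38.p6), with CG dinucleotides in capitals. The windows are Robo1 at chr16:72662899-72663198, Plxna2 at chr1:194619579-194619878, Sema3a at chr5:13396534-13396833 and Sema3d at chr5:12382916-12383215, all on the plus strand.
Robo1: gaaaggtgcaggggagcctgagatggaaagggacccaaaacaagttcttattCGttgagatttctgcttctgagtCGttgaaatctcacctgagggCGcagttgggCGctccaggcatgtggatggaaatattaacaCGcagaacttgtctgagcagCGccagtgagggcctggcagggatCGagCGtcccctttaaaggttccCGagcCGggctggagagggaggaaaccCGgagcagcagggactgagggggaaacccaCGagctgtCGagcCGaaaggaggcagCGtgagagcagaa
Plxna2: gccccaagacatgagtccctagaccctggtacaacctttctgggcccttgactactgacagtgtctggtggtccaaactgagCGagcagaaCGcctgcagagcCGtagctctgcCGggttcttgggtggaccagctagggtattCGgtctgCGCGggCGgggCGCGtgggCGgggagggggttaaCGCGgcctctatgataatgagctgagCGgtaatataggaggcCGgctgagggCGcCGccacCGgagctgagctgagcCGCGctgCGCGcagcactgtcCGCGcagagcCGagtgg
Sema3a: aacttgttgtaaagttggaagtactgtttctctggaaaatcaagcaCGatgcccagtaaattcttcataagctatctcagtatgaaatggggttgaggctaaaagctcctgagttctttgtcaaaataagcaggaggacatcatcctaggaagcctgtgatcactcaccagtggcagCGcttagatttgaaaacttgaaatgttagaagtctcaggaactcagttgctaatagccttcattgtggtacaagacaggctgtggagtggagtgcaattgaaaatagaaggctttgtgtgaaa
Sema3d: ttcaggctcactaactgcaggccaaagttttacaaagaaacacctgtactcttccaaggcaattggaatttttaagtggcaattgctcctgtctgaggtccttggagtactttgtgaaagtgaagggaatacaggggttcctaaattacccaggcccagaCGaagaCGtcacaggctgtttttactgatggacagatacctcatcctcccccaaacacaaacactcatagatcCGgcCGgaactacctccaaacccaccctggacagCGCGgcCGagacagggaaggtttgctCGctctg
Plxna2 has 25 CG dinucleotides in its window, Robo1 has 15, Sema3d has 8 and Sema3a has 2. The motif GGGCGG, searched on both strands, is in the Plxna2 window and not in the other 3. RefSeq gave 65 windows for 51 of the 61 genes, with a median of 18 CG dinucleotides, and 70.8% of them hold GGGCGG. Over all 32851 mouse windows the median was 7 and the share 35.7%. These are descriptions of the sequence, and no binding or methylation was measured.

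The first question was how guidance genes changed in Arc cells as the retina matured. Most ligands and receptors that changed were lower with age, led by the plexins Plxnc1 and Plxna1, while 5 receptors of other families (Epha6, Epha7, Epha8, Unc5a and Unc5c) and 3 semaphorins were higher. A line fitted through the 21 arrays of P1 to P20 (limma, Benjamini-Hochberg adjustment over all 13617 genes, threshold 0.05) called 39 of the 61 genes, or 63.9%, where 37.7% of all genes were called. Of the 61 genes, 31 (50.8%) were lower with age, against 23% of all genes, and 8 (13.1%) were higher, against 14.7% of all genes. The count of higher genes is near the share of all genes, so it is no result about the families. The median fitted change from P1 to P20 was -0.30 over the 61 genes and -0.13 over all genes. Among the 31 lower genes 19 had an Arc mean above background, and among the 8 higher genes 6 had. Without the P1 array 39 genes were called again, 38 of them shared. With each array centred on its median, 8 of the 61 genes were higher and 21 lower, and of all genes 2423 were higher and 1478 lower, while the median of all genes moved to -0.02. The calls of Efna1, Efnb1, Epha2, Ephb4, Ntng1, Plxnd1, Robo2, Robo4, Sema3c, Sema5b, Unc5b and Unc5d were lost under at least 1 of 3 other scalings, which left 27 genes called under all of them (8 higher and 19 lower).

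**Figure D1:**
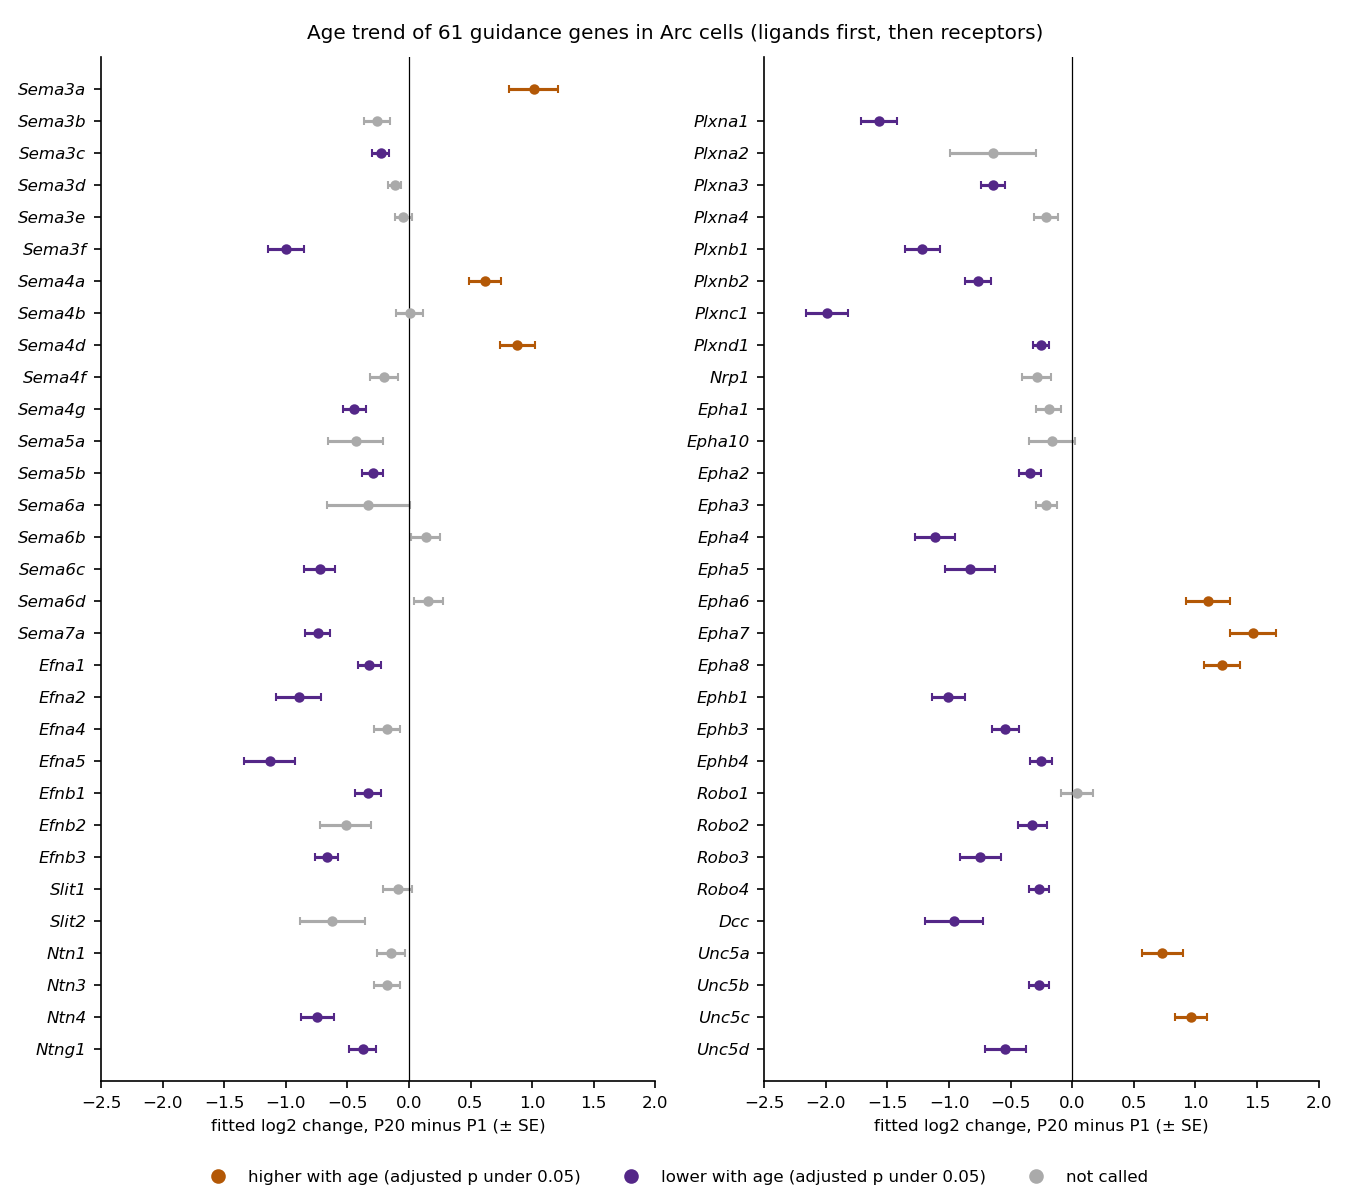
Fitted log2 change between P1 and P20 in Arc cells (horizontal axis, point ± SE from 21 arrays) for each of the 61 guidance genes, ligands first and receptors after them. Orange points are the 8 genes called higher with age, purple points the 31 called lower and grey points the 22 not called. Plxnc1 lies farthest to the left at -1.99 and Epha7 farthest to the right at 1.47.

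Plexins, the semaphorin receptors, were lower for 6 of 8 members and higher for none. The counts of each family stand against the 23% of all genes that were lower and the 14.7% that were higher. Plxnc1, the receptor of Sema7a, had a lowest, median and highest level of 4.60, 5.25 and 5.78 in the early arrays (P1 to P6), 4.29, 4.46 and 5.11 in the middle arrays (P7 to P13) and 3.54, 3.70 and 4.45 in the late arrays (P14 to P20), with 7 arrays in each window. All 7 late arrays lay below all 7 early ones, and the fitted change was -1.99 ± 0.17 (SE, limma adjusted p 1.4e-09). Plxna1, a co-receptor for class 3 semaphorins, had 7.23, 7.58 and 8.10 early, 6.68, 7.10 and 7.45 in the middle and 6.24, 6.48 and 7.09 late. Its late arrays too lay below every early array, and the change was -1.57 ± 0.15 (adjusted p 8.6e-09). Plxnb1, a receptor for class 4 semaphorins, changed by -1.22 ± 0.14 (adjusted p 2.16e-07), and its late median of 3.34 was below background against 4.25 early. Smaller falls were called for Plxnb2 (-0.77), Plxna3 (-0.64) and Plxnd1 (-0.26), the last below background throughout.

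Among the ligands of plexins, 6 of 18 semaphorins were lower, 3 were higher and 9 were not called. The count of higher semaphorins is near the 14.7% of all genes, and that of lower ones not far above the 23%. Sema3f, a secreted repellent, had a late range of 3.60 to 4.18 against 4.08 to 5.18 early, and fell by 1.00 ± 0.15 (adjusted p 7.62e-06). Sema7a, the membrane-anchored ligand of Plxnc1, fell by 0.74 ± 0.10, with all 7 late arrays below the early ones at levels that ended under background (late median 3.08). Sema6c (-0.73), Sema4g (-0.44), Sema5b (-0.30) and Sema3c (-0.23) were also lower. On the other side, Sema4d, a ligand of Plxnb1, had 4.62, 5.10 and 5.34 early, 4.94, 5.32 and 5.54 in the middle and 5.34, 5.67 and 5.84 late. Its 7 late arrays were all above the early ones, a change of 0.88 ± 0.14 (adjusted p 3.26e-05). Sema4a was higher by 0.62 ± 0.13, again with no overlap between late and early arrays. Sema3a, a secreted repellent of axons, was higher by 1.01 ± 0.20 (adjusted p 0.000312), but only 3 of its 21 arrays were above background.

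Eph receptors moved in both directions. Of the 12 members, 6 were lower with age (Epha4, Ephb1, Epha5, Ephb3, Epha2 and Ephb4) and 3 were higher (Epha7, Epha8 and Epha6). Epha7 had 3.29, 3.76 and 4.38 early, 4.10, 4.48 and 4.60 in the middle and 4.44, 4.82 and 5.31 late. Its change of 1.47 ± 0.19 (adjusted p 1.14e-06) was the highest of the 61 genes, and its late arrays were all above the early ones. Epha8 rose by 1.22 ± 0.15 (adjusted p 4.23e-07), with a late range of 5.43 to 5.95 against an early range of 4.22 to 5.19. Epha6 rose by 1.10 ± 0.18, with a late median of 3.63 and all early arrays below background (highest 3.04). In the opposite direction, Epha4, which binds ephrins of both classes, had 4.74, 5.13 and 5.69 early, 4.43, 4.75 and 4.88 in the middle and 3.94, 4.39 and 4.75 late, a change of -1.11 ± 0.16 (adjusted p 9.39e-06). Ephb1 (-1.01 ± 0.13) and Epha5 (-0.83 ± 0.20) fell as well.

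Ephrins, the ligands of the Eph receptors, were lower for 5 of 7 members (Efna5, Efna2, Efnb3, Efnb1 and Efna1) and higher for none. Efna5 had the largest fall, -1.13 ± 0.21 (adjusted p 0.000161), with a late range of 2.89 to 3.48 against an early range of 3.23 to 4.99. The highest of these early values was that of the P1 array. Efna2 fell by 0.90 ± 0.18 (adjusted p 0.000445) and stayed above background on all 21 arrays.

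The netrin receptors were split in the same way. Unc5c, which mediates repulsion from netrin, had 5.38, 5.78 and 5.98 early, 5.84, 5.95 and 6.28 in the middle and 5.94, 6.36 and 6.73 late, a change of 0.96 ± 0.13 (adjusted p 2.84e-06). Unc5a rose by 0.73 ± 0.17 (adjusted p 0.00141). Dcc, the receptor for attraction to netrin, fell by 0.96 ± 0.24 (adjusted p 0.00286), with a late range of 4.26 to 4.84 against 4.49 to 6.27 early. Unc5d (-0.54) and Unc5b (-0.27) were lower near or below background. Of the netrins, Ntn4 was lower (-0.75 ± 0.13, adjusted p 0.00012) and Ntn1 and Ntn3 were not called, and Ntng1 was lower (-0.38) below background.

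Of the Slit receptors, Robo1 and Robo2 were far above background on every Arc array. Robo1 had 7.44, 7.90 and 8.19 early, 7.66, 7.83 and 8.15 in the middle and 7.68, 7.82 and 8.02 late. The windows overlapped, and the fitted change was 0.04 ± 0.13 (adjusted p 0.83). Robo2 fell by 0.32 ± 0.12 (adjusted p 0.0399), with a late median of 6.83 against 7.14 early. This call was lost in 13 of 30 alternatives (limma adjusted p up to 0.343), most of them with 1 array left out. Robo3 (-0.75) and Robo4 (-0.27) were lower at levels near background. The Slits themselves were not called: Slit1 changed by -0.09 ± 0.12 and Slit2 by -0.62 ± 0.26 (adjusted p 0.0647).

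A curve with 3 degrees of freedom through the same arrays (moderated F-test) called 31 genes, or 50.8%, against 23.7% of all genes. It shared 29 of them with the line and added 2, Sema6a and Plxna2. Sema6a had 6.53 at P1, 7.93 at P2, 8.31 at P3, 8.73 at P4 and 8.51 at P5, then 9.01 and 8.32 on the P6 arrays, 8.55 at P7, 7.63 at P13 and 7.99 at P20. It was highest around the end of the first week, with a fitted peak on day 7 (adjusted p 0.000588), and without the P1 array the call stood (adjusted p 0.000198). Plxna2, its receptor, had 7.63 at P1 and 4.89 to 6.06 on the other days, and its curve (adjusted p 0.027) was not called without P1 (adjusted p 0.368). The P1 array was also the highest of the Arc series for Robo3 (4.40), Efna5 (4.99), Slit2 (6.34) and Sema5a (4.54). Among the genes called lower with age, it was the highest too for Plxnb1, Plxnb2, Sema3f, Sema6c, Efna2, Ntn4, Ephb3 and others. Among those called higher, it was the lowest for Epha7, Epha8, Unc5a, Unc5c, Sema4d and Sema3a. The line fitted without P1 still called each of these named genes that it had called with P1.

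The single P43 array, held out of both fits, lay above the early median for 8 of the 8 genes that were higher with age and below it for 29 of the 31 that were lower. The early arrays behind this median also entered the fit that chose these genes, so the counts are no separate test of the calls. The same counts over all genes were not made. Plxna1 had 5.95 at P43 and Plxnc1 had 3.76, and Epha7 had 4.99 and Unc5c had 6.38. For 30 of the 61 genes P43 lay outside the range of P17 to P20, where 49.3% of all genes did.

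Markers of other cells moved with age in the Arc arrays too. Rod markers were higher for 7 of 9 genes, with a mean level of 3.73 to 4.32 over the late arrays against 3.10 to 3.46 early. Muller glia markers were higher for 3 of 6 and lower for 1 (4.24 to 4.68 late against 3.36 to 3.86 early). Horizontal cell markers were lower for 4 of 5 (2.64 to 2.96 late against 2.86 to 3.78 early). Only 1 of the 5 was above background in the late arrays and 2 in the early arrays. Of all genes, 23% were lower and 14.7% higher with age. Ganglion cell markers were lower for 3 of 9 and higher for 1 (3.64 to 3.79 late against 3.42 to 3.89 early). The 6 measured starburst markers were all below background in each Arc window. The part of these cells in the guidance gene changes was not tested.

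The second question was how starburst cells changed between P3 and P18. The secreted semaphorins Sema3a and Sema3d, were below background at P18 and well above it at P3, and Sema6a, Epha5, Efna2 and 4 plexins were lower. Efna5 and Epha10 were higher. The fit over the 6 starburst arrays called 11 of 61 genes, or 18%, against 8.65% of all genes. Of the 61 genes, 9 (14.8%) were lower at P18, against 3.89% of all genes, and 2 (3.28%) were higher, against 4.76% of all genes. The count of higher genes is near the share of all genes. The median change was -0.14 over the 61 genes and -0.06 over all genes. With 3 arrays a group, the P18 and P3 arrays did not overlap for 28 of the 61 genes, and for 27% of all genes.

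Sema3a had 2.63, 2.46 and 2.45 at P18, against 5.11, 5.10 and 4.61 at P3. All P18 arrays were below background, a change of -2.43 ± 0.18 (adjusted p 6.7e-05), or at least 2.04-fold. Sema3d, a further secreted semaphorin, had 2.65, 2.36 and 2.60 at P18, against 4.66, 4.61 and 5.17 at P3. It changed by -2.28 ± 0.19 (adjusted p 0.000151), or at least 1.88-fold. Sema6a had 5.67, 5.65 and 5.78 at P18, against 7.16, 7.43 and 6.89 at P3. It stayed above background and was 2.75-fold lower (-1.46 ± 0.17, adjusted p 0.000769).

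Plxna2, the receptor of Sema6a, had 7.65, 8.03 and 7.75 at P18, against 8.46, 8.52 and 8.30 at P3, a change of -0.61 ± 0.15 (adjusted p 0.0356). Plxna1 had 5.68, 5.82 and 5.66 at P18, against 6.72, 6.56 and 6.36 at P3, a change of -0.83 ± 0.15 (adjusted p 0.00972). Plxnb1 fell by 0.96 ± 0.17 to below background, at least 1.60-fold, and Plxna3 fell by 0.74 ± 0.16. None of the 8 plexins was higher at P18, where 4.76% of all genes were.

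Efna2 had 3.58, 3.60 and 3.88 at P18, against 5.06, 4.99 and 5.08 at P3, a change of -1.36 ± 0.15 (adjusted p 0.000672). Its P18 arrays were below background, and the fall was at least 2.19-fold. Epha5, a receptor of A-class ephrins, had 4.43, 4.23 and 5.14 at P18, against 5.63, 6.21 and 6.35 at P3 (-1.46 ± 0.27, adjusted p 0.0101). Efna5 went the other way, with 5.70, 6.65 and 5.90 at P18, against 5.23, 5.09 and 4.80 at P3. It was 2.06-fold higher (1.04 ± 0.25, adjusted p 0.0327), and leaving out 1 array lost the call in 5 of 6 cases (highest adjusted p 0.108). Epha10, an Eph receptor without kinase activity, had 5.92, 5.92 and 5.80 at P18, against 4.90, 5.24 and 4.76 at P3 (0.91 ± 0.17, adjusted p 0.00951). The calls of Plxna2 and Plxna3 were also lost without single arrays, with adjusted p up to 0.121 and 0.092. That of Plxna2 was lost as well with each array centred on its median and in the fit of 12 arrays with both cell types.

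Rod markers were higher for 2 of 9 genes in starburst P18 (mean level 4.10 to 4.31, against 3.35 to 3.49 at P3), and their part in these differences was not tested. None of the 6 measured Muller glia markers was called.

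The third question was how starburst and Arc cells of about the same age differed. Robo1 was below background in starburst cells and far above it in Arc cells at both ages, while Plxna2, Sema7a, Efna5 and Slit2 were higher in starburst cells at both ages. At P18, starburst cells were set against the Arc arrays of P17 to P19, and at P3 against those of P2 to P4, in 1 fit of 12 arrays, with neighbouring days in place of Arc replicates. At P18, 30 of 61 genes differed, or 49.2%, where 20.7% of all genes did. Of these, 14 were higher in starburst cells (9.69% of all genes) and 16 were lower (11% of all genes). At P3, 18 of 61 differed, or 29.5%, against 10.8% of all genes. Of these, 8 were higher in starburst cells (5.13% of all genes) and 10 were lower (5.66% of all genes). In all, 16 genes were called at both ages, 15 of them in the same direction, with 7 higher and 8 lower in starburst cells. These counts at both ages were not made over all genes, so they cannot be read as particular to the guidance genes. The median difference over the 61 genes was 0.19 at P18 and 0.14 at P3, and over all genes 0.10 and 0.07. Both groups were above background for 17 of the 30 genes called at P18 and 12 of the 18 called at P3, and neither was for 4 at P18 and 0 at P3. With each array centred on its median, 8 were higher and 17 lower at P18, and 8 and 12 at P3. Of all genes, 556 were then higher and 2206 lower at P18, and 409 and 1052 at P3. The lean to lower calls under this scaling was thus shared by all genes. At P18 the calls of Efnb1, Epha2, Epha5, Epha8, Plxna1, Sema3d, Sema3f, Sema4d and Sema4g were lost under at least 1 of 3 other scalings, and at P3 none of the 18 was. Leaving out single arrays also lost the P18 calls of Sema6d (in 11 of 19 alternatives), Efnb2 (4 of 20), Plxna3 and Slit1 (3 of 20 each) and Sema4b (1 of 20). At P3 it lost those of Plxnb2 (4 of 20) and of Sema4a and Unc5a (2 of 20 each).

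**Figure D2:**
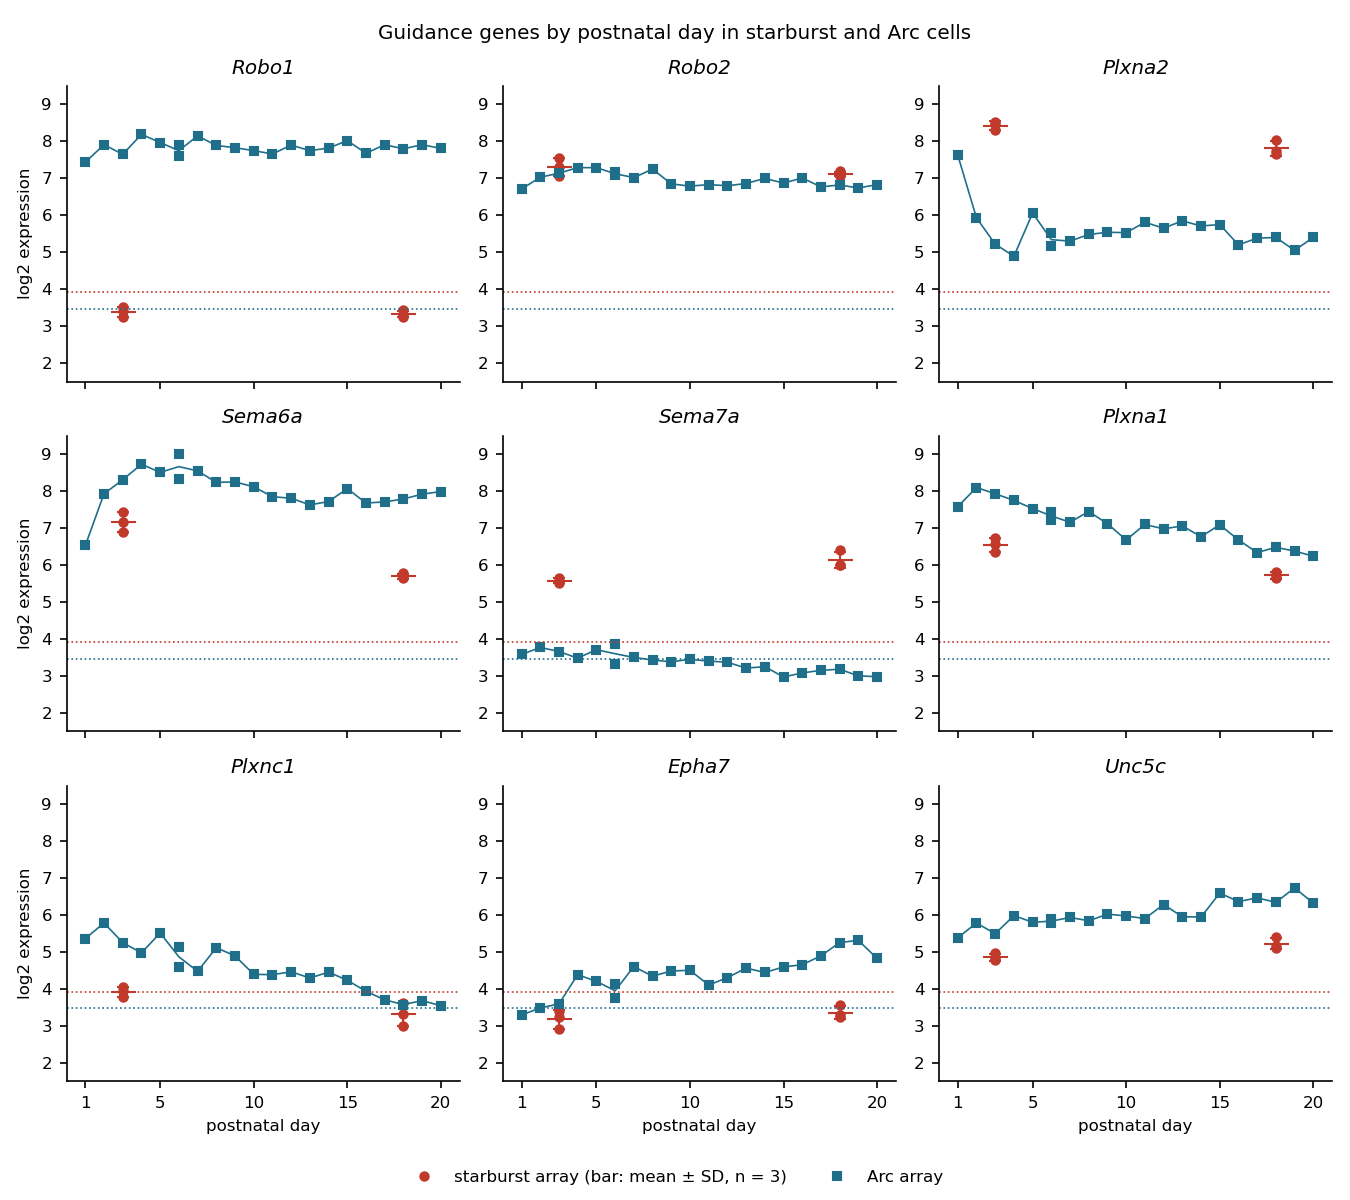
Log2 expression (vertical axes) by postnatal day (horizontal axes) for 9 guidance genes, with 1 red point per starburst array (bar, mean ± SD, n = 3) and 1 blue point per Arc array joined by day; P43 is not drawn. Dotted lines mark the background of 3.91 in starburst (red) and 3.47 in Arc cells (blue). Robo1 sits below the red line in starburst cells and between 7.44 and 8.19 in Arc cells, and Plxna2 and Sema7a lie higher in starburst cells at both ages.

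Robo1 (transcript cluster 6842326) had 3.25, 3.31 and 3.43 in starburst P18, against 7.91, 7.80 and 7.91 in Arc P17 to P19. It had 3.41, 3.25 and 3.52 in starburst P3, against 7.91, 7.65 and 8.19 in Arc P2 to P4. No starburst array reached background and every Arc array was far above it. The differences were -4.54 ± 0.15 at P18 (adjusted p 2.64e-10) and -4.53 ± 0.15 at P3 (adjusted p 2.81e-10), or at least 15.6-fold and 16.1-fold lower in starburst cells. Robo2, the other main Slit receptor of neurons, was at 7.12 ± 0.07 in starburst P18 and 6.78 ± 0.04 in Arc P17 to P19 (SD, n = 3 each), and the difference of 0.34 was not called (adjusted p 0.0937). At P3 it was at 7.31 ± 0.24 in starburst and 7.15 ± 0.13 in Arc cells (adjusted p 0.502).

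Of the Slit ligands, Slit2 had 6.11, 6.11 and 6.87 in starburst P18, against 4.97, 4.87 and 4.96 in Arc cells, and was 2.70-fold higher (1.43 ± 0.18, adjusted p 9.62e-05). At P3 it was 1.99-fold higher in starburst cells (0.99 ± 0.18, adjusted p 0.00327). Slit1 was lower in starburst cells (-0.57 at P18 and -0.73 at P3) and below background there, with bounds of at least 1.15-fold and 1.19-fold.

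Plxna2 (transcript cluster 6756536) had 7.65, 8.03 and 7.75 in starburst P18, against 5.38, 5.40 and 5.05 in Arc P17 to P19. At P3 it had 8.46, 8.52 and 8.30 in starburst cells, against 5.93, 5.22 and 4.89 in Arc cells. The groups were wide apart, with 5.80-fold at P18 (2.54 ± 0.22, adjusted p 2.62e-06) and 8.46-fold at P3 (3.08 ± 0.22, adjusted p 7.5e-07) more in starburst cells. Its ligand Sema6a was lower in starburst cells, with 5.67, 5.65 and 5.78 at P18, against 7.71, 7.79 and 7.92 in Arc cells. At P3 it had 7.16, 7.43 and 6.89 in starburst cells, against 7.93, 8.31 and 8.73 in Arc cells. That made 4.32-fold less at P18 (-2.11 ± 0.19, adjusted p 3.48e-06) and 2.24-fold less at P3 (-1.16 ± 0.19, adjusted p 0.0013).

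Sema7a (transcript cluster 6989438) had 6.01, 6.40 and 6.00 in starburst P18, against 3.15, 3.18 and 3.0 in Arc cells, which were below background. It was at least 4.69-fold higher in starburst cells (3.03 ± 0.14, adjusted p 6.95e-09). At P3 it had 5.52, 5.65 and 5.55 in starburst cells, against 3.77, 3.66 and 3.48 in Arc cells (1.94 ± 0.14, adjusted p 9.76e-07). Plxnc1, its receptor, was lower in starburst P3, at 3.92 ± 0.13, against 5.33 ± 0.41 in Arc cells (SD, n = 3 each), a difference of -1.41 ± 0.20 (SE, adjusted p 0.000474). At P18 it was at 3.31 ± 0.31 in starburst and 3.65 ± 0.07 in Arc cells and was not called (adjusted p 0.247). Sema4g was higher in starburst cells at both ages (0.68 at P18 and 0.85 at P3). Sema4a was lower there at both ages (-0.89 at P18 and -0.60 at P3, at least 1.61-fold and 1.21-fold), and Sema4d and Sema4b were lower at P18 (-0.63 and -0.59).

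Efna5 had 5.70, 6.65 and 5.90 in starburst P18, against 3.18, 3.17 and 2.92 in Arc cells, at least 4.50-fold higher (2.99 ± 0.25, adjusted p 1.92e-06). At P3 it had 5.23, 5.09 and 4.80, against 4.05, 3.87 and 3.23 in Arc cells (1.33 ± 0.25, adjusted p 0.00399). Efnb2, a B-class ephrin, was higher in starburst cells at P18 (1.46 ± 0.40, adjusted p 0.0206), and Efnb1 was too (0.64). Among the receptors, Epha7 had 3.35 ± 0.17 in starburst P18 and 5.15 ± 0.23 in Arc cells (SD, n = 3 each), a difference of -1.80 ± 0.22 (SE, adjusted p 8.11e-05) and at least 2.36-fold. Epha4 was lower in starburst cells at P18 (-0.98 ± 0.18, at least 1.36-fold) and at P3 (-1.88 ± 0.18, adjusted p 1.02e-05, at least 2.68-fold), where no starburst array reached background. Epha5 was higher in starburst cells by 0.75 at P18 and 1.70 at P3, and Epha10 by 1.44 at P18 (adjusted p 5.06e-05), while its difference of 0.35 at P3 was not called. Of the other Eph receptors, Epha6 (-1.17) and Epha8 (-0.54) were lower in starburst cells at P18, and Ephb3 (0.66, at least 1.03-fold) and Epha2 (0.40) were higher. For Epha6 the Arc mean did not exceed the starburst background, so no fold is given, and Epha2 was below background in both cell types.

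The netrin receptors differed in both directions. Unc5c was lower in starburst cells, with a difference of -1.29 ± 0.16 at P18 (adjusted p 6.18e-05) and -0.90 ± 0.16 at P3 (adjusted p 0.00206). Unc5a was lower as well (-1.30 ± 0.26 at P18 and -1.12 ± 0.26 at P3). Dcc had 5.35, 6.18 and 5.64 in starburst P18, against 4.40, 4.31 and 4.38 in Arc cells, and was 2.57-fold higher (1.36 ± 0.19, adjusted p 0.000265). At P3 its difference of 0.14 was not called (adjusted p 0.679). Plxna1 was lower in starburst cells at both ages (-0.68 at P18 and -1.38 at P3). Plxna3 (-0.50) and Sema6d (-0.41) were lower and Sema3d (0.58) and Sema3f (0.43) higher in starburst cells at P18, which completes the 30 calls. Sema6d and Sema3d were below background in both groups there. Plxnb2 was lower at P3 (-0.53). No netrin was called at either age.

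**Figure D3:**
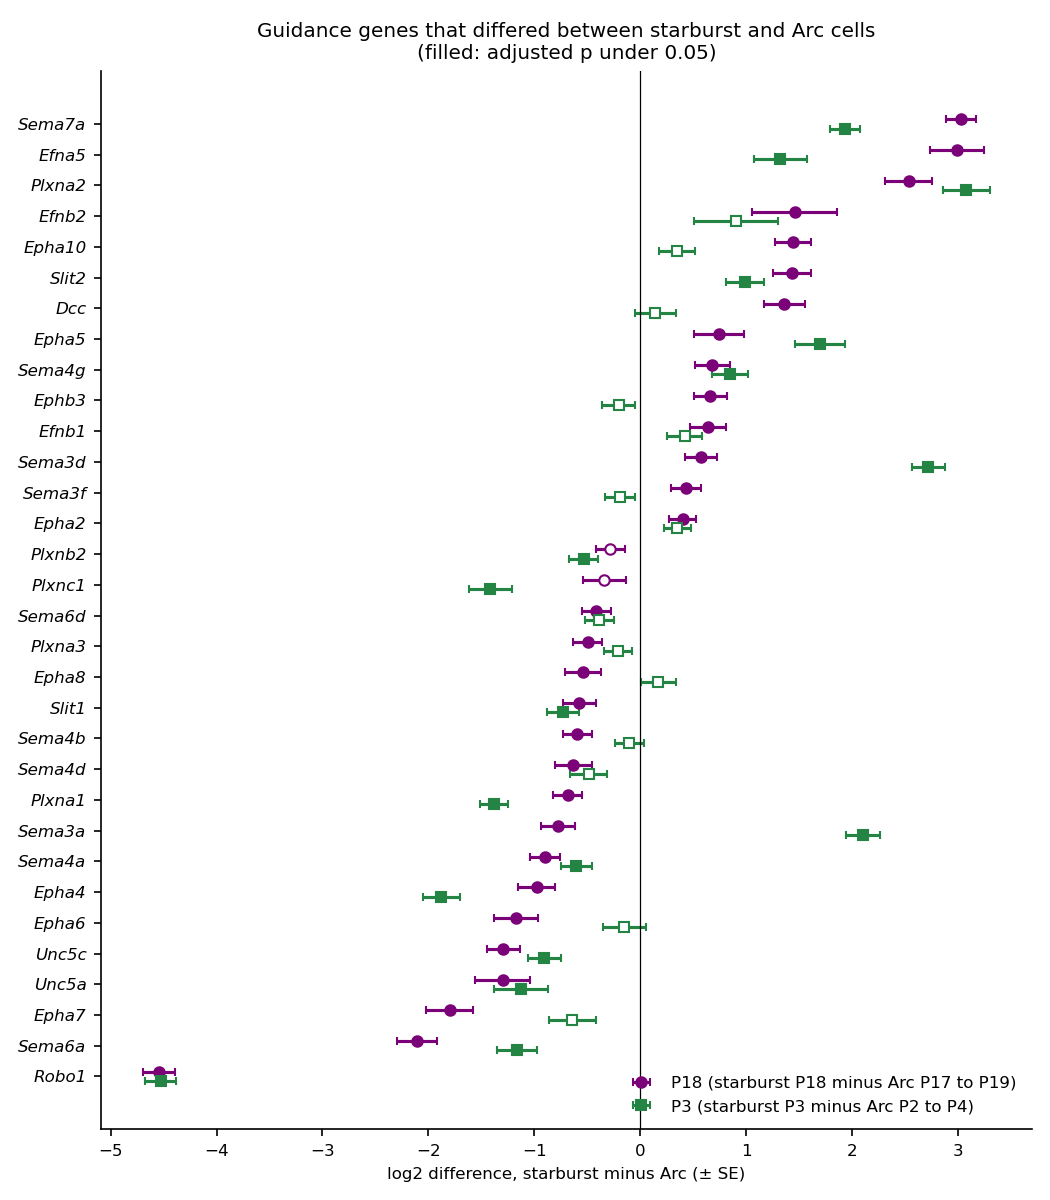
Log2 difference between starburst and Arc cells (horizontal axis, point ± SE, 3 arrays a group) for the 32 guidance genes called at P18 or P3, with circles for P18 and squares for P3. Filled symbols have an adjusted p under 0.05. Sema7a lies highest at P18 with 3.03, and Robo1 lies lowest with -4.54 at P18 and -4.53 at P3.

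Pan-amacrine markers were lower in starburst cells for 5 of 9 genes and higher for 0 at P18, and lower for 5 and higher for 1 at P3. Their mean level was 5.98 to 6.02 in starburst P18, against 7.27 to 7.43 in late Arc arrays. Muller glia markers were lower for 3 of 6 and higher for 1 at P18 (3.22 to 3.74 in starburst P18, against 4.24 to 4.68 in late Arc arrays). Microglia markers were higher for 3 of 7 (2.98 to 3.07 against 2.56 to 2.77), with both ranges below background. Of these 7 genes, 1 lay above background in starburst P18 and 1 in late Arc arrays. The part of such cells in the differences above was not tested.

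The last question was whether the change from P3 to P18 differed between the cell types. This interaction was called for 7 of 61 genes, or 11.5%, against 4.02% of all genes. It was positive for Efna5, Dcc, Epha10, Sema7a and Ephb3 (8.2%, against 1.67% of all genes). It was negative for Sema3a and Sema3d (3.28%, near the 2.36% of all genes). Its median was 0.04 over the 61 genes and 0.01 over all genes. The Arc and starburst arrays used are those of the comparisons above, so its values are not independent of them.

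**Figure D4:**
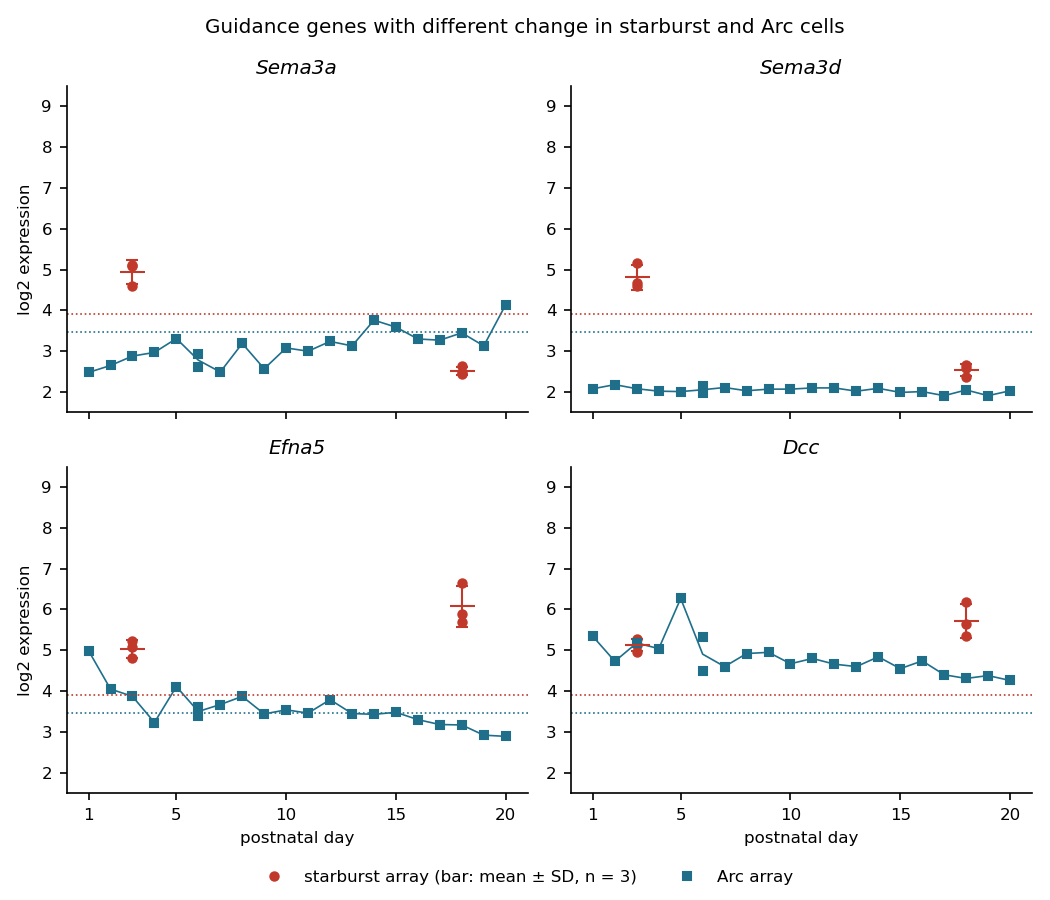
Log2 expression (vertical axes) by postnatal day (horizontal axes) of 4 genes with a called interaction, with 1 red point per starburst array (bar, mean ± SD, n = 3), 1 blue point per Arc array joined by day, and dotted lines at background. In starburst cells Sema3a and Sema3d drop below background at P18 and Efna5 lies higher at P18, and in Arc cells Sema3d stays below background throughout.

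Sema3a fell in starburst cells by 2.43 and was at 3.29 ± 0.16 in Arc P17 to P19 and 2.83 ± 0.16 in Arc P2 to P4 (SD, n = 3 each), both below background. The interaction was -2.88 ± 0.23 (SE, adjusted p 7.55e-06). Between the cell types, Sema3a was at least 2.04-fold higher in starburst cells at P3 (adjusted p 1.27e-06) and lower there at P18 (-0.77, adjusted p 0.00415, both groups below background). Sema3d was at 1.96 ± 0.08 in Arc P17 to P19 and 2.09 ± 0.08 in Arc P2 to P4, and its interaction was -2.14 ± 0.21 (adjusted p 6.53e-05). Sema7a had an interaction of 1.09 ± 0.20 (adjusted p 0.00655).

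Efna5 was called in opposite directions, higher at P18 in starburst cells and lower with age in Arc cells, and its interaction was 1.67 ± 0.36 (adjusted p 0.017). Without the Arc P19 array it was no longer called (adjusted p 0.0522). Dcc rose by 0.60 in starburst cells without a call (adjusted p 0.155) and had an interaction of 1.22 ± 0.28 (adjusted p 0.0226). Epha10 had 1.09 ± 0.24 (adjusted p 0.0203) and Ephb3 had 0.87 ± 0.22 (adjusted p 0.0398). Of the 9 genes lower in starburst P18, 5 were also lower with age in Arc cells (Efna2, Epha5, Plxna1, Plxna3 and Plxnb1). Another 3 were not called there (Plxna2, Sema3d and Sema6a), and Sema3a was higher. Over the 61 genes, 50.8% were lower with age in Arc cells, so the count of 5 is near that share.

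Genes that work with these families were counted as 2 lists, which were chosen with results of these data already known. Intracellular effectors of guidance receptors (32 measured of 39) were lower for 17 and higher for 5 with age in Arc cells, with a median change of -0.34, where 23% of all genes were lower and 14.7% higher. The count of higher effectors is near that share. In starburst P18 against P3, 8 were lower and 2 were higher (3.89% and 4.76% of all genes), with a median of -0.30. Dpysl3, a collapsin response mediator, fell by 4.50 in Arc cells and by 2.55 in starburst cells. Its relative Dpysl5 fell by 2.23 in Arc cells and by 2.43 in starburst cells, and Chn1, a Rac regulator downstream of Eph receptors, rose by 1.82 and 1.73. Between the cell types, 6 effectors were higher and 7 lower in starburst cells at P18 (9.69% and 11% of all genes), and 5 and 5 at P3 (5.13% and 5.66% of all genes). Srgap3, which acts downstream of Robo receptors, was lower in starburst cells (-1.79 at P18 and -2.00 at P3).

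Other guidance cues and receptors (33 measured of 35) were lower for 13 and higher for 5 with age in Arc cells (23% and 14.7% of all genes), with a median change of -0.21, and the count of higher genes is again near the share of all genes. Met, the receptor of hepatocyte growth factor, rose by 2.42, and Neo1, a receptor for netrins and repulsive guidance molecules, fell by 1.05. In starburst P18 against P3, 5 were higher and 4 lower (4.76% and 3.89% of all genes), with a median of -0.06, the same as over all genes. Cntn1, a neural adhesion molecule, rose by 2.11, and Neo1 fell by 1.08. Between the cell types, 6 were higher and 8 lower in starburst cells at P18 (9.69% and 11% of all genes), and 3 and 5 at P3 (5.13% and 5.66% of all genes). Dscam, an adhesion molecule that spaces amacrine neurites, was lower in starburst cells (-3.11 at P18 and -2.98 at P3). Flrt2, a ligand of Unc5 receptors, was higher by 1.83 at P18 and by 2.13 at P3. The interaction was positive for 2 effectors and negative for 3, and positive for 4 and negative for 2 of the other cues and receptors (1.67% positive and 2.36% negative of all genes).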

How the data were processed

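RNA from sorted retinal amacrine cells was measured on 28 arrays, 22 of Arc cells and 6 of starburst cells. The deposited values are log2 expression per transcript cluster, made by the authors with R 2.11.1 and RMA per the submitters' processing notes, which also name build mm8. No label gives the base of the logarithm, so RMA's convention was followed. Which arrays were normalized together, and any batch correction, is not given in the sources used here. An Arc value may stand for 1 sample or for a mean of samples; the sources used here do not say which. The number of arrays limits the precision.

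Of 15170 transcript clusters, the 13720 with 1 gene symbol were kept, and for each gene the cluster with the highest mean over the 28 arrays, which left 13617 genes. Low values were kept. The 61 members were found by symbol. The background was set by 708 olfactory receptor genes, a choice carried over from an earlier analysis and made after values were seen.

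Models were fitted in R 4.3.3 by limma 3.58.1 (lmFit, then eBayes with a mean-variance trend), and p-values are two-sided with Benjamini-Hochberg adjustment over all genes at 0.05. The age trend was a linear term over the 21 Arc arrays of P1 to P20, and a natural spline with 3 degrees of freedom was fitted to the same arrays. Starburst P18 was tested against P3 over 6 arrays, and the cell types and the interaction over 12 arrays. The Arc days carry no replicates other than at P6, so p-values there rest on the spread around the fit or between neighbouring days. Named genes were members past the threshold in order of the size of the change, up to 24 a comparison, with further members named to complete a family or a set of calls after their values were seen, members called by the spline and not the line, those called in opposite directions in the cell types and those past the interaction threshold. Alternatives were 3 other scalings, a filter on background, other ages or arrays left out, array weights and the mean of all clusters of a gene. The fits were tested on simulated data in which 100 of the 13617 genes changed by a log2 of 1 and 100 by 0.5, up or down. For the cell type comparisons and the interaction, the simulated noise was that of the starburst replicates alone. The Arc trend called 93% of genes with a log2 change of 1 and 64% of those with 0.5. These shares were 46% and 3% for starburst P18 against P3, and 31% and 2% for the interaction. For starburst against Arc they were 65% and 14% at P3, and 66% and 16% at P18. Fewer genes were changed in the simulations than were called in the real data, so these shares need not hold there. The simulated comparisons differed in the share called, so counts of calls may not be alike between comparisons. A gene not called may have changed.

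The members, lists and tests were chosen with earlier results of these data known. The marker lists of pan-amacrine, starburst, ganglion, rod, cone, bipolar, Muller glia, horizontal, astrocyte, microglia, and endothelial and mural cells served as checks. Cone and astrocyte markers were below background in every group. Bipolar markers had mean levels of 3.59 to 3.74 in starburst P18, 3.27 to 3.56 in starburst P3 and 3.33 to 3.75 over the Arc windows. Endothelial and mural markers had 2.87 to 3.22, 3.32 to 3.41 and 2.62 to 3.13. Pearson correlations between replicates over all genes were 0.958 to 0.966 in starburst P18, 0.95 to 0.957 in starburst P3 and 0.974 for the Arc P6 pair.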

Additional observations from a re-analysis of the deposited data

Results flagged for a closer look

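The change between P3 and P18 differed between starburst and Arc cells by a test of the difference itself (limma interaction, adjusted over all 13617 genes) for 7 of the 61 guidance genes. The interaction, starburst change minus Arc change on the log2 scale, was -2.88 for Sema3a, -2.14 for Sema3d, 1.67 for Efna5, 1.22 for Dcc, 1.09 for Epha10, 1.09 for Sema7a and 0.87 for Ephb3. Sema7a was called under all 20 alternatives, and Sema3a and Sema3d under the 19 in which they were tested, since the filter on background leaves them out. Efna5 was lost without the Arc P19 array (adjusted p 0.0522). Dcc was lost in 6 alternatives (adjusted p up to 0.064), Epha10 in 4 (up to 0.0605) and Ephb3 in 13, which include all 3 other scalings (up to 0.12).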

How the results depend on the processing

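No call reversed its direction under any alternative tried. Calls that held under every alternative in which the gene was tested numbered 21 of 39 for the Arc age trend (7 higher and 14 lower, 29 or 30 alternatives), 26 of 31 for the curve (28 or 29), 8 of 11 for starburst P18 against P3 (14 or 15), 15 of 18 and 16 of 30 for starburst against Arc at P3 and P18 (19 or 20 each), and 3 of 7 for the interaction (19 or 20). The lower numbers are those of genes that the filter on background leaves out. With P1 to P16 only, the Arc trend called 21 of the 61 genes in place of 39, from fewer arrays and a shorter span. With the Arc value taken from a line over P1 to P20 (27 arrays), the interaction called 13 in place of 7, the P3 comparison 27 in place of 18 (15 higher and 12 lower in starburst cells) and the P18 comparison 42 in place of 30 (24 higher and 18 lower). Leaving out 1 array at a time gave 3 to 11 interaction calls, with 11 without Arc P4, 4 without Arc P17 and 3 without Arc P19. The cause was not tested.

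Over all genes, P1 to P16 called 1966 in the Arc trend in place of 5137. The line over 27 arrays called 3788 in place of 1469 at P3, 5623 in place of 2820 at P18 and 1299 in place of 548 in the interaction. Leaving out 1 array gave 931 to 1507 calls at P3 and 1586 to 2873 at P18. The replicate block in starburst P18 against P3 called 11 members, as without it, and 1060 genes in place of 1178. Deviations of same-numbered starburst arrays correlated at 0.046, 0.018 and -0.044, and those of other pairs at -0.069 to 0.056. With 3 arrays a group and many genes near background, these values cannot decide whether the samples were paired. Signals near background limit all folds of members below it.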

Other observations

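Of the 22 guidance genes not called by the line in Arc cells, Nrp1, the co-receptor of class 3 semaphorins, was below background in both cell types. Its mean was 2.68 in starburst P18, 2.72 in starburst P3, 2.56 in Arc P17 to P19 and 2.57 in Arc P2 to P4. Plxna4 was likewise below background, at 2.86 in starburst P18, 3.25 in starburst P3, 2.79 in Arc P17 to P19 and 2.89 in Arc P2 to P4. Sema6b, a transmembrane semaphorin, was above background on every array, and none of the comparisons called it, with levels of 5.12 in starburst P18, 4.98 in starburst P3, 5.12 in Arc P17 to P19 and 5.02 in Arc P2 to P4.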
